A study of Homo sapiens with 6 samples.

Results

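The metallothioneins examined here are 8 genes of a single cluster on chromosome 16: MT1A, MT1E, MT1F, MT1G, MT1H, MT1M, MT1X and MT2A. They were taken by name from a table of 56505 rows of gene counts, in which each of the 8 had a row. RNA was sequenced in 6 libraries labelled as MDA-MB-468, an established basal-like, triple-negative breast cancer cell line, cultured with fetal bovine serum and otherwise untreated. Cells of 3 libraries held a vector with a control hairpin RNA (shControl). Cells of the other 3 held one hairpin directed at cytokeratin 5, titled shCK5-22 and called shCK5 here, so the knockdown was represented by a single hairpin. KRT5 encodes cytokeratin 5, an intermediate filament protein of the basal cells of epithelia. The comparison asks which transcripts differ between cells with the hairpin directed at this keratin and cells with the control hairpin.

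Metallothioneins are very small, cysteine-rich proteins that hold zinc and copper, and also cadmium, in clusters of metal bound to sulphur. They buffer free zinc and react with oxidants. Their genes are among those induced by zinc through the transcription factor MTF1, which binds metal response elements in their promoters, and several also respond to glucocorticoids and oxidative stress. MT2A is usually the most abundant form in human cells, and metallothionein protein is often detected in breast carcinomas.

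The 2 groups differed in more than the targeted gene. KRT5 had 2044 ± 23.3 CPM (counts per 1e+06 counts of the library, after TMM scaling) in shControl and 16.42 ± 0.845 CPM in shCK5 (SD, n = 3 each). RB1 and SMAD4, which are deleted in the labelled line, had 101.0 ± 2.16 and 16.86 ± 0.547 CPM in shCK5, against 1.996 ± 0.136 and 0.2346 ± 0.138 CPM in shControl. The shCK5 libraries therefore went against the label of the line, and an effect of the hairpin cannot be told apart from a difference between the cells. The list of markers of basal, luminal, mesenchymal and other cells also held RB1 and SMAD4. Of its 17 tested genes, 5 were higher in shCK5, RB1 and SMAD4 among them, and 12 were lower. SMAD4 passed the filter on low counts through shCK5 and PTPRC through shControl, so each could only be called in the direction seen. Of all genes tested, 40.9% were higher and 41.7% lower. VIM, of mesenchymal cells, rose from 6.911 to 987.2 CPM, and EPCAM, of epithelial cells, fell from 316.2 to 26.61 CPM. PTPRC (leukocytes) and COL3A1 (fibroblasts) were below 1 CPM in both groups. COL1A1, also of fibroblasts, had 12.86 CPM in shControl and 8.702 in shCK5, and PECAM1 (endothelium) 2.207 and 4.227 CPM. The part of such differences in the results for metallothioneins was not tested. Total counts lay between 68810882 and 83594772 per library. Whether replicates were separate cultures is not stated, and the p-values cover only the spread among these libraries, which may be technical.

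Coding sequences are shown for MT2A, MT1E and MT1F, because these members were among the 4 most abundant in shCK5 and the copies are so alike that reads may be hard to assign. The capitals mark in-frame TGC and TGT codons, which encode cysteine. The sequences run 5′ to 3′ from the start codon, without the stop codon, and come from GENCODE release 29 on GRCh38.
MT2A: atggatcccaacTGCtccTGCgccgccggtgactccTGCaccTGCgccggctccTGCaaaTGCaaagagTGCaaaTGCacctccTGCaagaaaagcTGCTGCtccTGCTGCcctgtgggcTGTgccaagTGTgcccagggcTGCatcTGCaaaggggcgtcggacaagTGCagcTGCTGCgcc
MT1E: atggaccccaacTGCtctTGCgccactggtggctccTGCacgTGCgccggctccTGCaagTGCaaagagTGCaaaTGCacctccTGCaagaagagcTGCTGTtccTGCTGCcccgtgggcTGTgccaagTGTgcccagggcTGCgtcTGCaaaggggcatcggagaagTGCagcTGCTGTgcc
MT1F: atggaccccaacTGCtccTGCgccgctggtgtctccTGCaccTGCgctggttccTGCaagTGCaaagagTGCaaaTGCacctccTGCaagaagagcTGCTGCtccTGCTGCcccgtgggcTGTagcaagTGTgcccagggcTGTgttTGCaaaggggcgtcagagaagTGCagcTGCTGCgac
These 3 reading frames, and those of the other 5 members, each held 61 codons, of which 20 encoded cysteine. Over the 28 pairs of members, the coding sequences were identical at 88.5% to 95.1% of bases. MT1E and MT1A shared 94.5%, MT1E and MT2A 92.3%, and MT1F and MT2A 91.3%. Whole transcripts were searched for shared stretches. In MT2A, MT1A and MT1F no window of 75 bases recurred exactly in a transcript of another gene, and in MT1E 0.794% of such windows did. The share was 6.63% for MT1G, 10.8% for MT1H, 0.132% for MT1M and 31.6% for MT1X. The read length and the handling of reads that map to several copies are not known here, so the split of counts between members is uncertain.

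MT2A, the most abundant member, rose by less than 2-fold. It lies on chromosome 16 from 56608199 to 56609497 on the plus strand (ENSG00000125148.6). The shControl libraries had 188.3, 188.6 and 194.1 CPM of MT2A, and the shCK5 libraries had 333.9, 346.8 and 340.7 CPM. Every shCK5 library thus lay above every shControl library, and the spread within each group was small beside the gap. The log2 fold change was 0.84 (SE 0.0268), a 1.789-fold higher level, with an adjusted p of 1.09e-19 by edgeR's quasi-likelihood test. Of all 19567 genes tested, 23.1% had a log2 fold change at least as high, so a rise of this size was common in these libraries.

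MT1E, another zinc-binding form, went from nearly no counts to the second highest level in the family. Its gene spans bases 56625475 to 56627112 on the plus strand (ENSG00000169715.14). The shControl libraries held 1, 2 and 2 counts, and the shCK5 libraries 3828, 4384 and 3832. In CPM these were 0.01342, 0.02507 and 0.02787 against 48.22, 57.49 and 52.98. All shControl libraries were near zero and all shCK5 libraries were high. The log2 fold change was 11.12 (SE 0.147, edgeR adjusted p = 1.23e-27), and 0.235% of genes tested had one at least as high. As a ratio of summed counts per depth, MT1E was 2390-fold higher (exact 95% interval 1020 to 7360). The width of that interval comes from the 5 counts in shControl.

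MT1A moved in the same direction as MT1E at a lower level. It lies at bases 56638666 to 56640087, plus strand (ENSG00000205362.11). Its level was 0.04027, 0.03761 and 0.08361 CPM in shControl, from 3, 3 and 6 counts, and 3.817, 3.672 and 3.857 CPM in shCK5, from 303, 280 and 279 counts. The groups stood apart, and the shCK5 libraries differed little from each other. The log2 fold change was 6.11 (SE 0.26, edgeR adjusted p = 4.69e-17). MT1A counts amounted to 7.92%, 6.39% and 7.28% of MT1E counts in the shCK5 libraries. In shControl MT1A had more counts than MT1E in each library, although both were close to zero.

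MT1F went the other way. It spans bases 56657694 to 56660698 on the plus strand (ENSG00000198417.6). Its level was 4.04, 4.476 and 4.571 CPM in shControl and 2.179, 1.889 and 2.088 CPM in shCK5. All shControl libraries lay above all shCK5 libraries. MT1F fell by 1.09 on the log2 scale (SE 0.121, edgeR adjusted p = 9.94e-09), a 2.125-fold lower level. It was the second most abundant member in shControl and the fourth in shCK5.

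The other 4 members had at most 25 counts in any library. MT1H (bases 56669814 to 56671129, plus strand, ENSG00000205358.3) had 6, 12 and 4 counts in shControl and 23, 13 and 25 in shCK5. The groups did not overlap, but the highest shControl library, at 0.1504 CPM, came close to the lowest shCK5 library, at 0.1705 CPM. MT1H rose by 1.45 on the log2 scale (SE 0.505, edgeR adjusted p = 0.0107). The call was lost without shControl replicate 3 (1.20, adjusted p = 0.0573) and without shCK5 replicate 3 (1.25, adjusted p = 0.0637).

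MT1G (bases 56666731 to 56668065, minus strand, ENSG00000125144.13), the only member on the minus strand, had 2, 10 and 9 counts in shControl and 6, 10 and 12 in shCK5. The groups overlapped, and the ratio of shCK5 to shControl was 1.32 (exact 95% interval 0.724 to 2.45). MT1M (bases 56632233 to 56633986, plus strand, ENSG00000205364.3) had no count in shControl and 3, 2 and 2 counts in shCK5, which is at least 2.31-fold higher when 3 counts are taken as the floor for a whole group. MT1X (bases 56682424 to 56684196, plus strand, ENSG00000187193.8) had 2, 3 and 1 counts in shControl and 1, 0 and 1 in shCK5, a ratio of 0.331 (exact 95% interval 0.0326 to 1.85). MT1X was the only member whose exons overlapped another annotated gene: 18.1% of its exon bases lie within exons of AC026461.1, on the same strand. Windows of 75 bases in MT1X also recur in MT1G and in the pseudogene MT1XP1, which had 41 counts in shControl and 23 in shCK5. The low count of MT1X was not read as lack of expression. The part of the overlap and of the shared windows in it was not tested. MT1G, MT1M and MT1X did not pass the filter on low counts and were not tested. Intervals cover counting error only, and a floor takes the counts of the group with reads as exact.

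**Figure D1:**
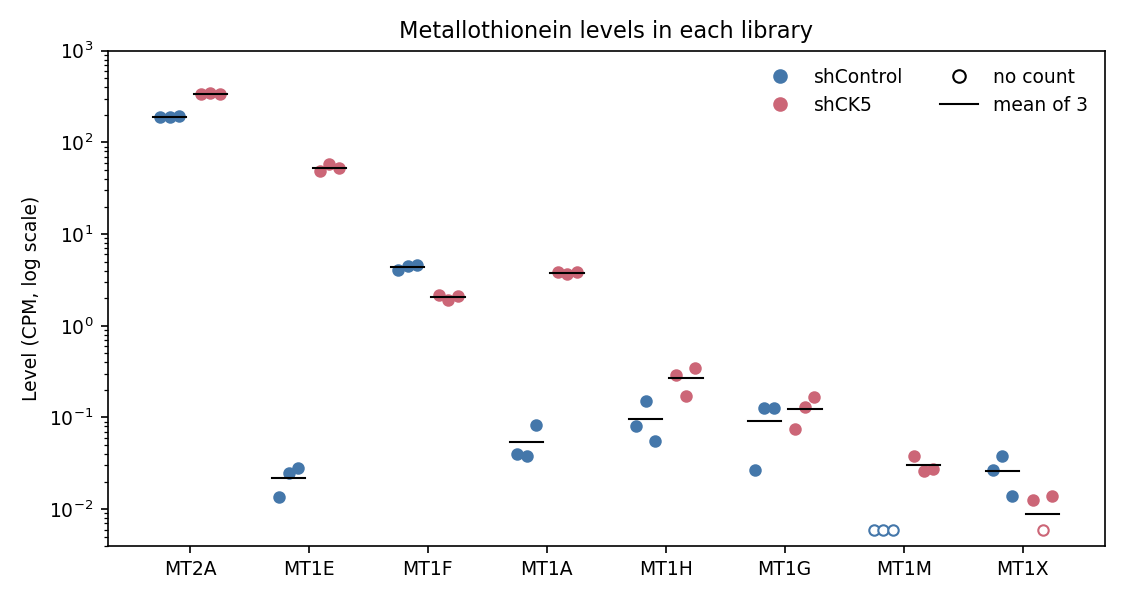
Level of each metallothionein in CPM (log axis) in the 3 shControl and 3 shCK5 libraries. Points are libraries, open points are libraries with no count drawn at the foot of the axis, and lines are group means. MT1E and MT1A stand apart between the groups, MT2A is high in both, MT1F is lower in shCK5, and the 4 members on the right lie below 1 CPM throughout.

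Of the 5 members tested, 4 were higher and 1 was lower in shCK5, at an adjusted p under 0.05. Across all genes tested 40.9% were higher and 41.7% lower, 82.7% in all, so that passing the test was itself no mark of a member. MT1A, MT1E and MT1H had means below 0.1 CPM in shControl and passed the filter through the shCK5 libraries, so they had to be the higher ones there. The count of higher members is therefore a description only. Nor did non-overlap set them apart: in 84.2% of all genes tested the groups did not overlap, with shCK5 higher in 41.6% and lower in 42.6%.

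Summed over the 8 members, the metallothionein level was 192.5, 193.4 and 199.0 CPM in shControl and 388.6, 410.1 and 400.2 CPM in shCK5. The mean rose 2.05-fold, from 195.0 ± 3.49 to 399.6 ± 10.8 CPM (SD, n = 3 each; exact two-sided permutation p = 0.1, the smallest that 3 against 3 libraries can give). Taken as 1 row in the edgeR fit, the family total had a log2 fold change of 1.04 (SE 0.0276, adjusted p = 2.43e-21). MT2A supplied 73.4% of the increase and MT1E 25.8%. A read counted at several copies would enter this sum more than once.

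The members did not move in proportion. MT2A made up 97.6% ± 0.17 of the family counts in shControl and 85.2% ± 0.7 in shCK5 (SD, n = 3 each). The share of MT1E was 0.0113% ± 0.0038 in shControl and 12.4%, 14% and 13.2% in the shCK5 libraries. MT1F held 2.24% ± 0.12 in shControl and 0.514% ± 0.051 in shCK5, and MT1A 0.0275% ± 0.013 and 0.947% ± 0.046. For each of these 4 members the groups did not overlap, and the exact permutation p was 0.1, the smallest possible (0.133 adjusted over the 8 members). The shares of MT1G and MT1H overlapped between the groups (exact permutation p = 0.4 and 0.5). Those of MT1M and MT1X did not overlap either (exact permutation p = 0.1 each), but they rested on at most 3 counts a library.

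**Figure D2:**
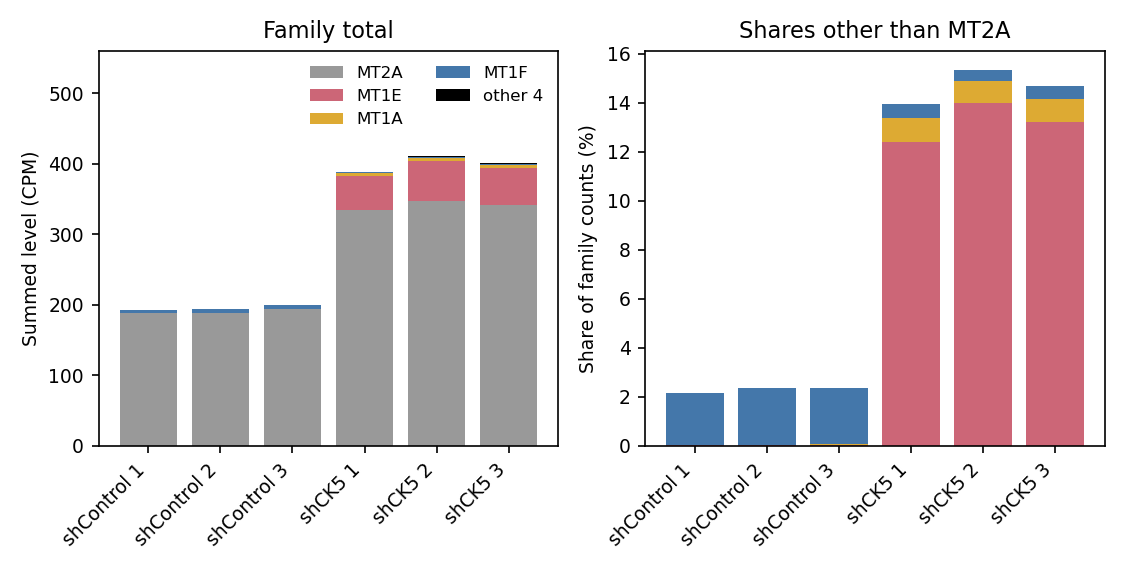
Left, summed metallothionein level in CPM per library, stacked by member. Right, share of the family counts in percent held by MT1E, MT1A and MT1F; MT2A holds nearly all of the remainder. The family total is between 192.5 and 199.0 CPM in shControl and between 388.6 and 410.1 CPM in shCK5, and the MT1E share is visible only in shCK5.

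To compare levels between genes, CPM was divided by transcript length in kilobases. On this scale MT2A had a level of 242 ± 4.16 CPM per kilobase in shControl and MT1F 6.32 ± 0.41 (SD, n = 3 each). MT1H (0.241 ± 0.124), MT1G (0.228 ± 0.14) and MT1A (0.136 ± 0.0652) followed with overlapping values. MT1X (0.0581 ± 0.0263) and MT1E (0.0314 ± 0.0109) overlapped too, and MT1M had no count. In shCK5 the order was MT2A (433 ± 8.15 CPM per kilobase), MT1E (75.1 ± 6.59), MT1A (9.55 ± 0.246) and MT1F (2.97 ± 0.215), which were clearly separated. MT1H (0.677 ± 0.225) and MT1G (0.306 ± 0.112) came next, with the lowest MT1H library at 0.4294 and the highest MT1G library at 0.4087, and MT1M and MT1X rested on at most 3 counts a library.

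Other genes of the family showed few counts. Of 10 listed relatives, MT1JP, a transcribed pseudogene between MT1M and MT1A, had 1, 0 and 0 counts in shControl and 15, 18 and 9 in shCK5 (ratio 41.6, exact 95% interval 7.08 to 1680). It did not pass the filter on low counts. Windows of 75 bases in MT1E and in MT1M recur in MT1JP, so its counts may include reads of MT1E, which was not tested. The pseudogene MT1L had 6 and 14 counts in the groups in total, with overlapping libraries. MT1B and MT3, the latter known from brain, had no count in shControl and 4 each in shCK5, and the 6 counts of MT1DP all came from shCK5 replicate 1. MT1XP1, a processed pseudogene on chromosome 1 that shares windows of 75 bases with MT1X and MT1G, was the only relative tested. Its estimate was -0.83 on the log2 scale (SE 0.511) and did not pass edgeR's test (adjusted p = 0.135). MT4, MT1CP and MT1HL1 had no count in any library, and MT1IP was not analysed here.

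Genes beside the cluster were mostly lower in shCK5. The 8 members span 76 kb, and 12 other genes within 500 kb of that span passed the filter. Of these, 10 were lower and 2 higher, with a median log2 fold change of -0.48 (all genes tested, -0.0194; 41.7% of these were lower and 40.9% higher). The nearest on either side were BBS2, a gene of the primary cilium, with 36.07 ± 1.65 and 23.23 ± 0.759 CPM in shControl and shCK5, and NUP93, of the nuclear pore, with 128.0 ± 1.71 and 89.0 ± 0.779 CPM. Their log2 fold changes were -0.63 (SE 0.0462) and -0.52 (SE 0.0285; edgeR adjusted p = 3.3e-12 and 8.51e-15). GNAO1 (-0.41), NUDT21 (-0.22), OGFOD1 (-0.45), HERPUD1 (-0.51), CPNE2 (-0.78) and FAM192A (-0.56) were also lower, by these log2 fold changes. SLC12A3, a kidney salt transporter, fell by 3.37 on that scale from 1.192 CPM. At 0.1135 CPM in shCK5, SLC12A3 passed the filter through shControl, so it could only be lower. The higher genes were CETP, a lipid transfer protein (1.24), and NLRC5, a regulator of MHC class I genes (0.25).

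**Figure D3:**
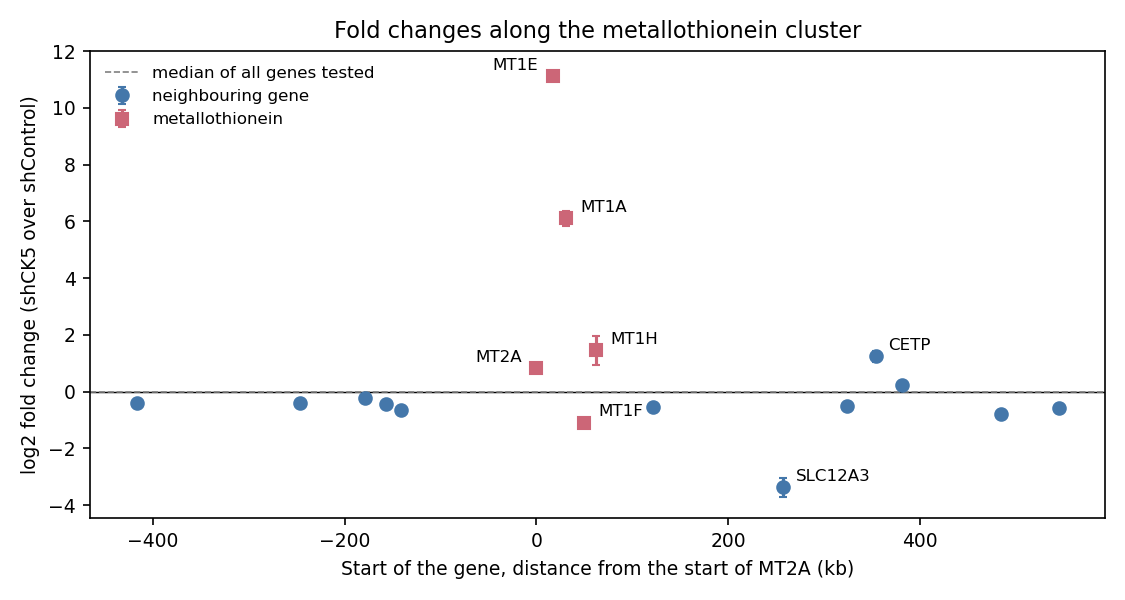
Log2 fold change of shCK5 over shControl (points, with the standard error of the edgeR fit) against the distance of each gene's start from the start of MT2A, in kilobases. Squares are the 5 tested metallothioneins and circles are 12 neighbouring genes. MT1E and MT1A lie at 11.12 and 6.11, while MT1F and 10 of the 12 neighbours lie below 0.

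Promoter sequences were looked at because metallothionein genes are among those induced by zinc through MTF1. RefSeq entries on GRCh38.p14 were matched for 3 of the 8 members, MT2A, MT1H and MT1X. Those of MT2A and MT1H, which were both higher in shCK5, are shown as the 250 bases before the RefSeq start on the plus strand, at chr16:56608334-56608583 and chr16:56669564-56669813. The RefSeq start of MT2A lies inside the GENCODE gene span given above, so its window does too. The capitals mark matches to the metal response element core, searched as TGCACNC and TGCGCNC on both strands.
MT2A promoter: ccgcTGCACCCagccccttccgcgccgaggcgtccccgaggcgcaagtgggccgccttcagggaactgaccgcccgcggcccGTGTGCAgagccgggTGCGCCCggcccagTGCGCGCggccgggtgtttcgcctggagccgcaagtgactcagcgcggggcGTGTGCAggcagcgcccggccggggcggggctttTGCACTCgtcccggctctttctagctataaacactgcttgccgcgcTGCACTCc
MT1H promoter: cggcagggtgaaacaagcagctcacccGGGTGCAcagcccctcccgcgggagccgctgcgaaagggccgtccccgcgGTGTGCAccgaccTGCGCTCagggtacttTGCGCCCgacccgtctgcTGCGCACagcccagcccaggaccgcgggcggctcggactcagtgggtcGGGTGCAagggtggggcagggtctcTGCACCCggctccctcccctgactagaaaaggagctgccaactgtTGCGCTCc
The MT2A window held 7 matches, that of MT1H 8 and that of MT1X 4. Of 35116 promoter windows of this length, 24.8% held at least 1 match, 0.0313% held at least 7, and 0.37% at least 4. The AP-1 motif TGANTCA, searched on both strands, had 1 match in the MT2A window, at position -104 from the start, and none in the windows of MT1H and MT1X (6.57% of all windows hold it). That match overlaps the antioxidant response element core TGACNNNGC, also searched on both strands, which 10.9% of all windows hold. The MT1X window also held 1 match to this core, at position -243 on the minus strand, and the MT1H window none. A match is a description of these letters and shows no binding.

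The transcript of the regulator fell, and genes listed for metal-responsive transcription moved in both directions. The activity of the MTF1 protein was not measured, and its part in the metallothionein levels was not tested. MTF1 had 67.07, 64.65 and 64.66 CPM in shControl and 33.29, 33.47 and 34.65 CPM in shCK5. All shCK5 libraries were lower, and MTF1 fell by 0.95 on the log2 scale (SE 0.0365, edgeR adjusted p = 5.09e-18). SLC30A1, the plasma membrane zinc exporter that MTF1 induces, had 31.92, 34.76 and 33 CPM in shControl and 53.4, 51.28 and 53.11 CPM in shCK5. It rose by 0.66 (SE 0.04, edgeR adjusted p = 7.28e-14). SLC39A10, a zinc importer that MTF1 represses under high zinc, rose from 17.82 ± 1.86 to 48.9 ± 0.423 CPM. Of 8 genes listed for metal-responsive transcription, 2 rose and 4 fell, with a median log2 fold change of -0.18. Beside MTF1, the genes that fell were GCLC, of glutathione synthesis (-1.08), KEAP1, which restrains NRF2 (-1.06), and NFE2L2, which encodes NRF2 (-0.30). HMOX1 (-0.05), a heme-degrading stress enzyme, and HSF1 (-0.02), of the heat shock response, did not pass, but both were called lower when counts were scaled by library size alone.

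Zinc is moved out of the cytosol by exporters and into it by importers. Among 9 tested exporters, 7 rose, 2 did not pass and 0 fell (median log2 fold change 0.41). The filter on low counts bears on these counts as it does on the members. TMEM163, SLC30A8 (0.117 CPM in shControl) and the importer SLC39A5 (0.05285 CPM) were near zero in shControl and could pass it through shCK5 only in the higher direction. It removed the exporter SLC30A2, with 52 counts in shControl and 2 in shCK5, and the importer SLC39A2, with 56 and 0 (at least 18.8-fold lower). TMEM163, a zinc efflux protein, rose from 0.1609 ± 0.113 to 7.939 ± 0.296 CPM, and SLC30A7, which loads zinc into the Golgi, from 29.43 ± 1.6 to 51.53 ± 1.13 CPM. Among 11 tested importers, 7 rose, 3 fell and 1, SLC39A1, did not pass (median 0.74). SLC39A13 rose from 24.15 ± 2.02 to 82.0 ± 2.47 CPM, and SLC39A8, which also carries cadmium and manganese, from 14.54 ± 0.652 to 41.29 ± 1.56 CPM. The importers that fell were SLC39A11 (-1.18), SLC39A4 (-0.59) and SLC39A9 (-0.14 on the log2 scale).

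Copper, iron and glucocorticoid genes moved in both directions. Of 16 copper genes, 7 rose and 6 fell (median log2 fold change 0.03). The copper chaperone ATOX1 rose by 0.80, the exporter ATP7A by 0.75 and the metalloreductase STEAP2 by 5.11. CP, which encodes ceruloplasmin, fell from 2.883 ± 0.47 to 0.08713 ± 0.0369 CPM, while COX17 and SCO2, which deliver copper to cytochrome oxidase, had changes of -0.42 and -0.29. The call of SCO2 was lost without shControl replicate 1 and without shCK5 replicate 3. STEAP2, at 0.1407 CPM in shControl, passed the filter on low counts through shCK5, so it could only be higher. CP and STEAP4, another metalloreductase gene that fell, were near zero in shCK5 and passed through shControl, so they could only be lower. Of 8 tested iron genes, 4 rose and 2 fell (median 0.26). The ferritin chains parted: FTL rose from 385.7 ± 6.26 to 1424 ± 29.9 CPM and FTH1 fell from 3743 ± 123 to 556.9 ± 54.3 CPM, both uncertain because many pseudogene copies may share their reads. ACO1, an iron-sensing RNA-binding protein, rose by 2.78, the transferrin receptor gene TFRC by 0.35, and the iron transporter gene SLC11A2 fell by 0.79 on the log2 scale.

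Of 10 tested glucocorticoid-related genes, 5 rose and 5 fell (median log2 fold change 0.53). NR3C1, the glucocorticoid receptor gene, rose from 74.03 ± 2.33 to 213.3 ± 2.93 CPM, and the responsive genes SGK1 and ERRFI1 rose by 1.89 and 1.61 on the log2 scale. FKBP5, also on the list, rose from 32.82 ± 1.16 to 92.08 ± 2.41 CPM. TSC22D3, which encodes the leucine zipper protein GILZ and is a standard target of the receptor, fell from 171.7 ± 20.3 to 5.924 ± 0.377 CPM. CEBPD, a transcription factor gene, fell by 2.20 on the log2 scale. HSD11B2, an enzyme that inactivates cortisol, fell by 3.22. HSD11B1, among those that rose, had no count in shControl and passed the filter through shCK5, so it could only be higher. For these lists, as for the metallothioneins, 40.9% of all genes tested were higher and 41.7% lower, and no test set a list apart from other genes.

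**Figure D4:**
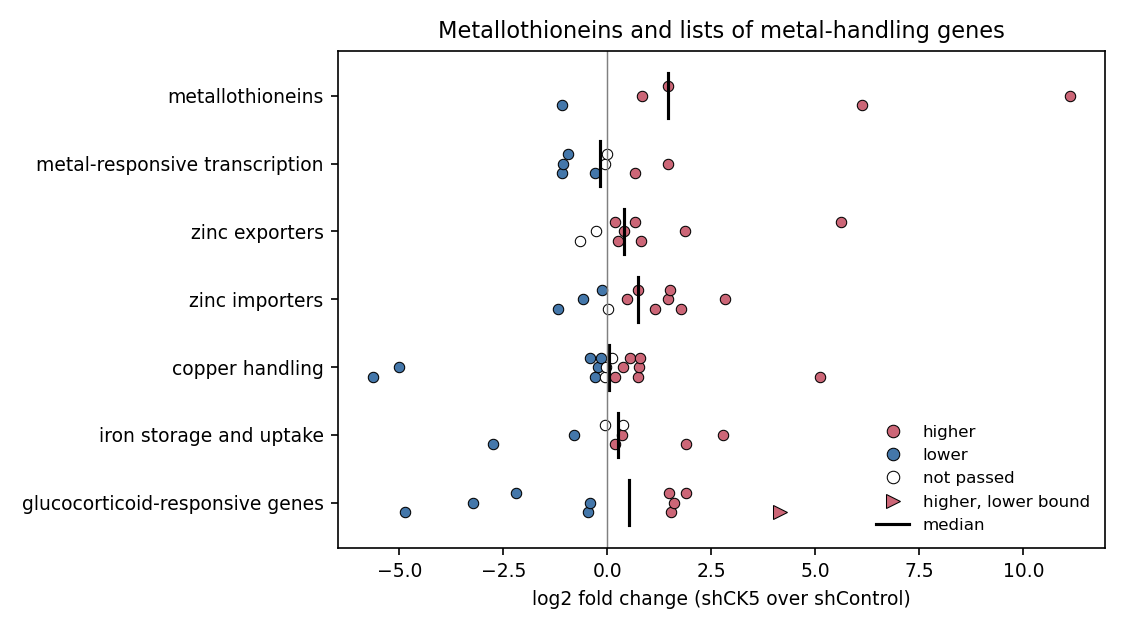
Log2 fold change of shCK5 over shControl for each tested gene, by list. Filled points passed the edgeR test (adjusted p under 0.05), open points did not, the triangle is a lower bound for a gene with no count in shControl, and black bars are medians. MT1E lies farthest to the right, and the other lists hold genes on both sides of 0; among zinc exporters those to the left did not pass.

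Genes whose levels followed that of MT2A most closely over the 6 libraries were sought among 12313 genes with a mean of at least 1 CPM in both groups. The measure was the Euclidean distance between log2 CPM values after each gene was centred on its own mean. The nearest were FANCA, of Fanconi anaemia DNA repair (distance 0.0312), UBB, a polyubiquitin gene (0.0325), the amino acid transporter SLC36A1 (0.0399), the noncoding row RP11-706O15.1 (0.0421) and SLC7A1, another amino acid transporter (0.0426). Their log2 fold changes lay between 0.83 and 0.85, close to that of MT2A. With little spread within groups, the distance mostly ranks genes by likeness of fold change, so this closeness came with the choice. Shared regulation was not tested. SLC36A1 and RP11-706O15.1 had nearly equal counts in both groups (6927 and 6911 in shControl, 12417 and 12411 in shCK5), so they may not be separate measurements.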

How the data were processed

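RNA-seq libraries of 3 shControl and 3 shCK5 samples were analysed. The deposited values are raw counts of reads per gene name, as the authors left them. Tools named in the submitters' processing notes are STAR, cutadapt, Cufflinks and SAMtools, with GRCh38 as the build. How reads were counted, with which strand setting and annotation, was not given in the sources used here. Of the counts above 20, 63.1% to 65% per library were even, so both mates of a fragment may have been counted, which would make count intervals too narrow.

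In R 4.3.3, filterByExpr of edgeR 4.0.16 left 19567 genes. Counts were scaled by TMM and tested with glmQLFit and glmQLFTest, adjusted by Benjamini-Hochberg over all genes tested, with a threshold of 0.05. The procedure was tested on simulated data. Log2 fold changes are shCK5 minus shControl. Other settings were DESeq2 1.42.0, its size factors, library size alone, no filter, the replicate number as a block, and leaving out each library. The exact permutation test was used for sums and shares.

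The members and lists were chosen with earlier results of these data known. From each list the text names up to 3 genes in each direction with the largest change among called genes with at least 1 CPM in 1 group. Beside these it names the 8 members, relatives with a count, regulators, cell markers, neighbours and the 5 genes nearest to MT2A. NFE2L2 is among the regulators. HMOX1, HSF1, SLC30A2, SLC30A6, SLC30A8, SLC30A10, SLC39A1, SLC39A2, SLC39A5, FKBP5, HSD11B1, COMMD1, STEAP4, MT4, MT1CP, MT1HL1 and MT1IP were named after their values were seen. Transcript lengths, positions and coding sequences came from GENCODE release 29, not known to be the authors' annotation, taking the transcript with the most cysteine codons and then the longest. In the window around the cluster, 33 of 54 annotated genes matched a row by name. One neighbouring gene and one sequence are not reported here.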

Additional observations from a re-analysis of the deposited data

How the results depend on the processing

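MT2A, MT1E, MT1A and MT1F kept their direction and passed the threshold under each of the 11 alternatives run for each gene. Their log2 fold changes ranged from 0.70 to 0.87, 10.88 to 11.29, 5.90 to 6.55 and -1.22 to -1.02, and MT1H ranged from 1.20 to 1.95 with its call lost in 2 of 11. Scaling by library size alone moved the median of all genes from -0.0194 to -0.156. With no filter, MT1G (0.42, edgeR adjusted p = 0.639), MT1M (4.30, 0.106) and MT1X (-1.41, 0.514) did not pass. Without 1 library, the number of members called higher ranged from 3 to 4. The permutation test of the family total could not pass the threshold with 3 against 3 libraries, whereas the total as 1 row in edgeR did (log2 fold change 1.036). The log2 ratio of the total was 1.035 and ranged from 1.016 to 1.055 without 1 library; it was 0.8991 by library size alone and 3.669 without MT2A. Leaving out 1 library, MT1JP was tested and called higher in 4 of 6 cases (0 to 1 relatives), and 0 to 1 zinc exporters were called lower (SLC30A2 or SLC30A10). With no filter, MT1JP was called higher and SLC30A2 lower. By library size alone 1 exporter, SLC30A10, was lower. Exporters called higher went from 7 to 6 by library size alone (SLC30A6 lost) and by the DESeq2 test (SLC30A8 lost). Copper genes called higher went from 7 to 6 by library size alone, where COMMD1 lost its call, as it did in several fits without 1 library. Importers called lower went from 3 to 4 by library size alone (SLC39A1), and with no filter or without 1 library in 4 of 6 cases (SLC39A2). With the replicate number as a block, 4 members were higher and 1 lower, as without it, and 7918 genes were higher and 8008 lower in all, against 8012 and 8165. Deviations of same-numbered libraries correlated at -0.00606, 0.00752 and -0.0033, so no shared effect of the number was seen. With 3 libraries a group, this cannot show whether same-numbered libraries were prepared together. The values of MT1G, MT1M, MT1X and MT1H rest on at most 25 counts a library.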
